A study of Mus musculus with 8 samples.

Results

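The 9 genes described here encode receptors of the tumour necrosis factor (TNF) receptor superfamily: Cd40, Tnfrsf4 (OX40), Tnfrsf9 (4-1BB), Tnfrsf18 (GITR), Tnfrsf14 (HVEM), Tnfrsf1a (TNFR1), Tnfrsf1b (TNFR2), Ltbr (the lymphotoxin beta receptor) and Tnfrsf11a (RANK). They were chosen by name, with earlier results of these data known. For each, the probe set that names only that gene was used. All 9 were measured, each by 1 such probe set, among 22180 genes in all. The arrays hold RNA of CD103+ CD11b+ conventional dendritic cells (cDC), sorted from the mesenteric lymph nodes of male C57BL6 mice, 8 weeks old and on control chow. In 4 arrays the mice carried the hBcl-2 transgene, human BCL2 driven by the CD11c promoter, which is active in dendritic cells and in other cells that make CD11c. The other 4 arrays came from wild-type littermates. Each array is a pool of 2 to 3 samples, and the labels do not say which animals a pool holds, so the tests measure the spread between pools (n = 4 per group throughout).

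These receptors are trimer-binding proteins of the cell surface. Ligand binding gathers TRAF adaptor proteins, or death-domain adaptors in the case of TNFR1, on the receptor's tail, and this activates NF-kB and MAP kinases. CD40 on dendritic cells receives the CD40 ligand of helper T cells and drives the cell to make interleukin 12 and costimulatory ligands. OX40, 4-1BB and GITR are best known as costimulatory receptors of T cells, and mature dendritic cells can express them too. RANK responds to RANK ligand and prolongs the life of dendritic cells. The lymphotoxin beta receptor supports their renewal in lymphoid organs, and TNFR1 and TNFR2 both bind TNF.

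By RefSeq order, Tnfrsf4 and Tnfrsf18 are adjacent, with 0 protein-coding genes between them, and Ltbr and Tnfrsf1a are separated by 1. Tnfrsf1b, Tnfrsf9, Tnfrsf14, Tnfrsf4 and Tnfrsf18 all lie on chromosome 4. Upstream sequence was found in the RefSeq table (build GRCm38.p6) for 8 of the 9 genes, in 9 windows of 250 bases before a transcript start, and Cd40 has no entry. The windows below are those of the adjacent genes Tnfrsf4 and Tnfrsf18, of which only the first passed the test described next, and the second window of Tnfrsf9, the one window with a match to the narrow kappa B motif. They are given 5′ to 3′ on the gene's strand, and capitals mark matches to the wide kappa B motif described after them, on either strand.
Tnfrsf4, chr4:156013445-156013694, plus strand: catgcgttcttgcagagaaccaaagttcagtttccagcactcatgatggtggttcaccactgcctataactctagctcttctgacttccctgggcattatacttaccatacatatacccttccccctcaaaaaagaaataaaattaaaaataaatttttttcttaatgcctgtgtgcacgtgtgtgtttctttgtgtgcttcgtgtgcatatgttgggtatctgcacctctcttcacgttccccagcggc
Tnfrsf18, chr4:156026072-156026321, plus strand: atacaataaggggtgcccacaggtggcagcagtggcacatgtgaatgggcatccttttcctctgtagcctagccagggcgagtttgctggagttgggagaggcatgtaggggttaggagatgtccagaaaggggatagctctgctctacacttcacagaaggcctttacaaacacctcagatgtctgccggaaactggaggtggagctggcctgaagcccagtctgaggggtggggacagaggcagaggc
Tnfrsf9, chr4:150927749-150927998, plus strand: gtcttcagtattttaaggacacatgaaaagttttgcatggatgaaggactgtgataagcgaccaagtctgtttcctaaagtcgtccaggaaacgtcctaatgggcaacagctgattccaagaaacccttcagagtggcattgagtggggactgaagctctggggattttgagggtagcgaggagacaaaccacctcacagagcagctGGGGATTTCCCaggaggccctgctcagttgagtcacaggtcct

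Kappa B motifs are the DNA letters that NF-kB proteins recognise. The wide form searched here is GGG, any 5 bases and CC, on both strands. It was present in 6 of the 9 windows, and in 45.8% of the 32851 windows of all genes. It was absent from the windows of Tnfrsf4 and Tnfrsf18, which therefore carry no capitals, and from the first window of Tnfrsf9. The narrow form, in which the last 3 of those 5 bases are TTT, is part of the wide one and was present in the second Tnfrsf9 window as GGGGATTTCC, whose first base lies 43 bases before the start. Of all windows, 1.41% hold the narrow form. These matches describe the letters of the windows only.

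Cd40 and Tnfrsf4 fell in transgenic cDC, and the other 7 receptors did not pass the test. A gene is said to have risen or fallen only at a limma adjusted p below 0.05 over all genes. The 2 of 9 that fell make up 22.2% of the receptors, against 0.848% of all genes called lower, 0.839% called higher and 1.69% called in either direction. The receptors and the gene lists below were chosen with earlier results of these data known, so their shares are a description and not a test. None of the 9 rose. At an unadjusted p below 0.05 in limma 0 of them were higher and 3 were lower, against 6.56% and 6.60% of all genes. All 4 transgenic arrays lay below all 4 wild-type arrays for 3 of the 9 (Cd40, Tnfrsf4 and Tnfrsf14), against 4.94% of all genes. The median log2 fold of the 9 was -0.13, and that of all genes was -0.0016. Levels are log2 signals as deposited, and a log2 fold is the transgenic minus the wild-type mean. No receptor was dim, which here means under 5.36, the 95th percentile of 1390 olfactory and vomeronasal receptor genes. Of the 22180 genes, 11218 averaged at or under that level, so the shares over all genes include many dim genes. When only genes averaging 6 or more were tested, 526 genes passed, 3 of them among the receptors. With all genes 374 passed, from more genes tested, so the share among these brighter genes was above 1.69%. Its exact value was not taken, so the 22.2% has no matched share among bright genes.

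**Figure D1:**
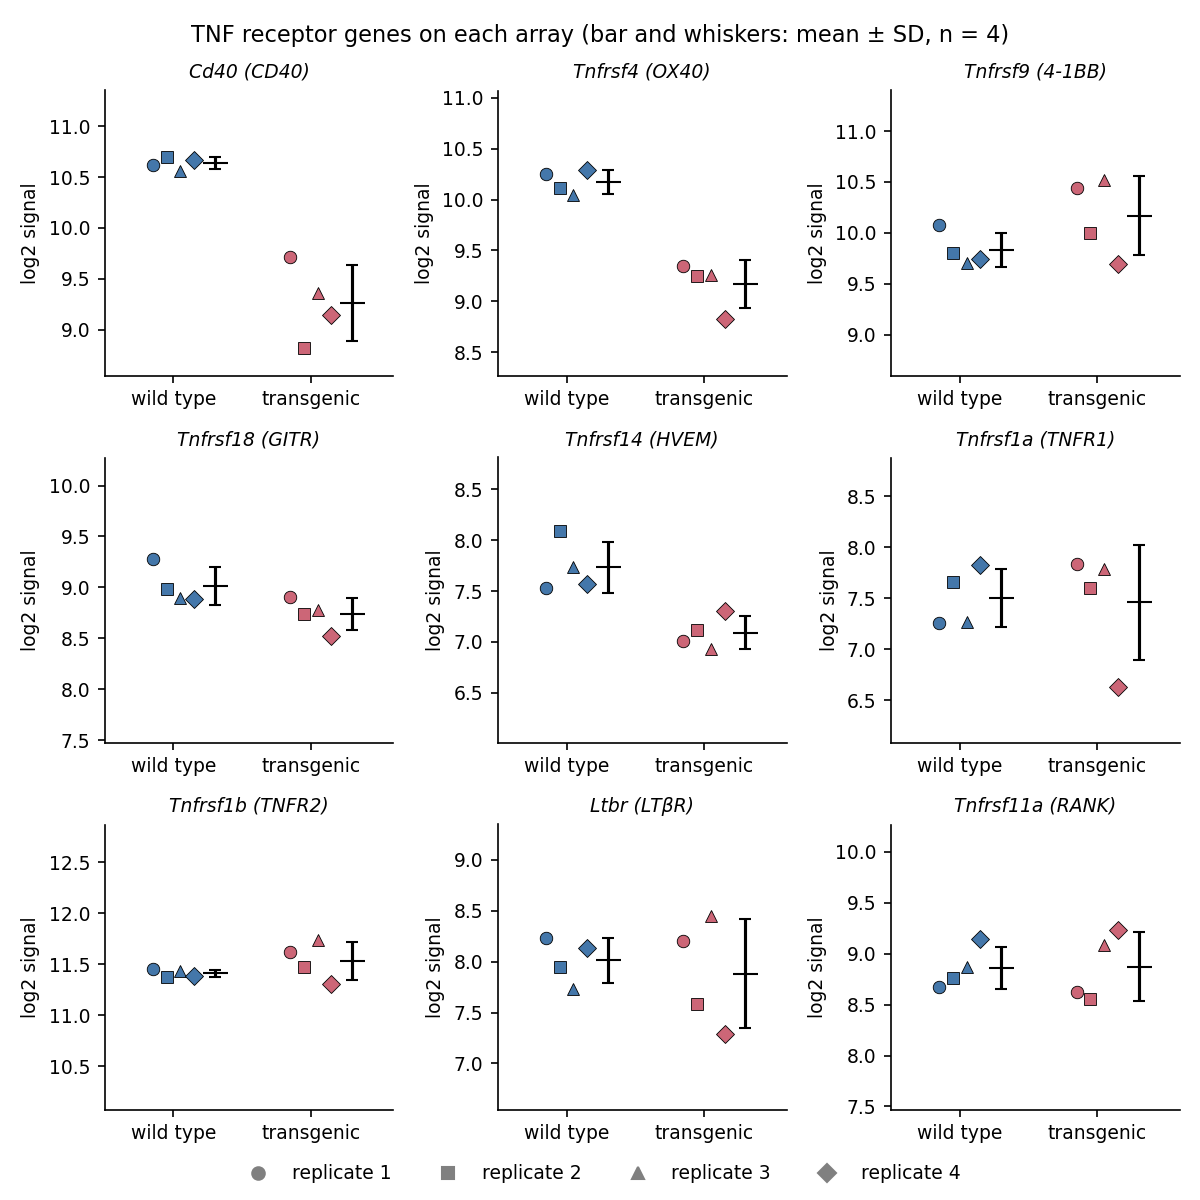
Log2 signal (y axis, equal span in each panel) of the 9 TNF receptor genes on the 4 wild-type arrays (blue) and the 4 transgenic arrays (red), with the mean and SD of each group beside the points. The groups separate for Cd40, Tnfrsf4 and Tnfrsf14, and transgenic replicate 4 (diamond) is the lowest of the 8 arrays for 6 genes.

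Cd40 had the lowest log2 fold of the 9. Its level was 10.62, 10.70, 10.56 and 10.67 on wild-type replicates 1 to 4, and 9.72, 8.83, 9.36 and 9.15 on transgenic replicates 1 to 4. The wild-type arrays lay close together, and the transgenic arrays were all lower and spread more widely. The means were 10.64 ± 0.062 and 9.26 ± 0.38 (SD, n = 4), a log2 fold of -1.37 (SE 0.17, 95% interval -1.75 to -0.99), with wild type 2.59-fold higher (limma adjusted p = 0.00644). Cd40 ranked 11th from the lowest of 22180 moderated statistics and 19th from the lowest log2 fold.

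Tnfrsf4, which encodes OX40, was at 10.25, 10.11, 10.05 and 10.29 on wild-type replicates 1 to 4, and at 9.34, 9.25, 9.26 and 8.82 on transgenic replicates 1 to 4. Here 3 transgenic arrays were nearly level, and replicate 4 was lower. The means were 10.17 ± 0.11 and 9.17 ± 0.23 (SD, n = 4), a log2 fold of -1.01 (SE 0.13, 95% interval -1.30 to -0.71), with wild type 2.01-fold higher (limma adjusted p = 0.00827). Without transgenic replicate 4 the fold was -0.89 (limma adjusted p = 0.00783).

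Its neighbour Tnfrsf18, which encodes GITR, was at 9.28, 8.99, 8.90 and 8.89 on wild-type replicates 1 to 4, and at 8.91, 8.74, 8.78 and 8.52 on transgenic replicates 1 to 4. The groups overlapped. The means were 9.01 ± 0.18 and 8.74 ± 0.16 (SD, n = 4), with a log2 fold of -0.28 (95% interval -0.56 to 0.0100, limma adjusted p = 0.399). Thus of the adjacent pair, OX40 passed and GITR did not, and the difference between their changes was not tested.

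Tnfrsf14 encodes HVEM, which binds LIGHT and also engages BTLA and CD160 on lymphocytes. It was at 7.53, 8.09, 7.73 and 7.57 on wild-type replicates 1 to 4, and at 7.01, 7.12, 6.93 and 7.31 on transgenic replicates 1 to 4. The groups did not overlap, with transgenic replicate 4 nearest to wild type. The means were 7.73 ± 0.25 and 7.09 ± 0.16 (SD, n = 4), with a log2 fold of -0.64 (SE 0.15, 95% interval -0.96 to -0.32), and the gene missed the threshold (limma adjusted p = 0.0631). It passed when low-signal genes were left out (limma adjusted p = 0.0449 for the genes no dimmer than the median one, and 0.0390 for those averaging 6 or more) and with array weights (log2 fold -0.71, limma adjusted p = 0.0328). A threshold of 0.1 also let it pass. In the other 15 of 19 alternative settings it did not pass. The limma adjusted p was 0.192 without variance moderation and 0.107 with the replicate number as a block.

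Tnfrsf9 encodes 4-1BB, and was the receptor with the highest log2 fold. It was at 10.07, 9.80, 9.70 and 9.74 on wild-type replicates 1 to 4, and at 10.44, 10.0012, 10.52 and 9.70 on transgenic replicates 1 to 4. Transgenic replicates 1 and 3 lay above every wild-type array, and replicate 4 lay below every one. The means were 9.83 ± 0.17 and 10.17 ± 0.39 (SD, n = 4), with a log2 fold of 0.34 (95% interval -0.072 to 0.75, limma adjusted p = 0.488). Without transgenic replicate 4 the log2 fold was 0.49 (95% interval 0.15 to 0.84), and it did not pass (limma adjusted p = 0.160).

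The TNF receptors proper did not pass. Tnfrsf1a, the death-domain receptor TNFR1, was at 7.26, 7.66, 7.26 and 7.83 on wild-type replicates 1 to 4, and at 7.83, 7.60, 7.78 and 6.62 on transgenic replicates 1 to 4. Transgenic replicate 4 was far below the other 7 arrays, which overlapped. The means were 7.503 ± 0.29 and 7.46 ± 0.57 (SD, n = 4), with a log2 fold of -0.042 (95% interval -0.62 to 0.53, limma adjusted p = 0.971). Without that array the log2 fold was 0.24 (95% interval -0.13 to 0.60, limma adjusted p = 0.555). The sign also turned without wild-type replicate 2 (0.010) or 4 (0.067).

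Tnfrsf1b, which encodes TNFR2, was at 11.45, 11.37, 11.43 and 11.39 on wild-type replicates 1 to 4, and at 11.62, 11.47, 11.74 and 11.30 on transgenic replicates 1 to 4. The means were 11.41 ± 0.036 and 11.53 ± 0.19 (SD, n = 4), with a log2 fold of 0.12 (95% interval -0.14 to 0.38, limma adjusted p = 0.743). Transgenic replicates 1 to 3 lay above all wild-type arrays and replicate 4 below them. Without replicate 4 the log2 fold was 0.20 (limma adjusted p = 0.428).

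Ltbr was at 8.24, 7.95, 7.73 and 8.13 on wild-type replicates 1 to 4, and at 8.20, 7.58, 8.45 and 7.29 on transgenic replicates 1 to 4. The transgenic arrays spanned the whole wild-type range, with means of 8.01 ± 0.22 and 7.88 ± 0.53 (SD, n = 4) and a log2 fold of -0.13 (95% interval -0.66 to 0.40, limma adjusted p = 0.889). Without transgenic replicate 4 it was 0.065. Tnfrsf11a, the gene of RANK, was at 8.67, 8.76, 8.87 and 9.15 on wild-type replicates 1 to 4, and at 8.63, 8.55, 9.09 and 9.23 on transgenic replicates 1 to 4. Both groups covered nearly the same range, with means of 8.86 ± 0.21 and 8.87 ± 0.34 (SD, n = 4) and a log2 fold of 0.011 (95% interval -0.38 to 0.40, limma adjusted p = 0.988). Its sign turned without transgenic replicate 4 (-0.11) or 3 (-0.060) and without wild-type replicate 1 (-0.053) or 2 (-0.023).

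Transgenic replicate 4 differed from the other arrays over all genes as well. Its mean correlation with its group over all probe sets was 0.970, against 0.976 to 0.979 for the other transgenic and 0.983 to 0.985 for the wild-type arrays. It held the lowest of the 8 values for 6 of the 9 receptors (Tnfrsf4, Tnfrsf9, Tnfrsf18, Tnfrsf1a, Tnfrsf1b and Ltbr) and the highest for Tnfrsf11a. Over all genes it held the lowest value for 18.5% and the highest for 23.2%. Without it Cd40 (log2 fold -1.34, adjusted p = 0.0157 in limma) and Tnfrsf4 again passed, and Tnfrsf14 was at -0.71 (adjusted p = 0.0506). Cd40 and Tnfrsf4 passed with each of the 8 arrays left out in turn, with log2 folds of -1.53 to -1.23 for Cd40 and -1.06 to -0.89 for Tnfrsf4. Both missed the threshold without variance moderation (adjusted p = 0.0816 and 0.0740 in limma).

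**Figure D2:**
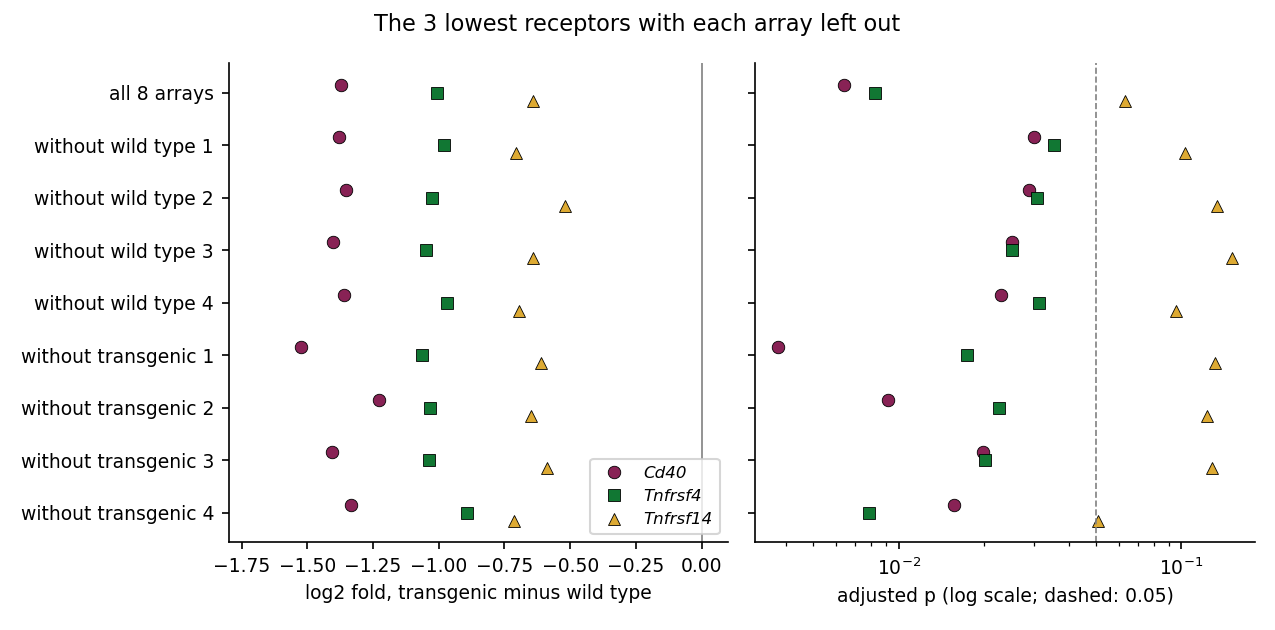
Log2 fold (left) and limma adjusted p on a log scale (right) of Cd40, Tnfrsf4 and Tnfrsf14 with all 8 arrays and with each array left out. Cd40 and Tnfrsf4 stay left of the dashed line at 0.05 in every row, and Tnfrsf14 stays right of it, at 0.0506 without transgenic replicate 4.

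The change of Cd40 was set against that of each other receptor within the arrays, as the log2 signal of Cd40 minus that of the other. The change was lower for Cd40 in all 8 pairs. The difference between the changes ran from -0.37 (against Tnfrsf4) to -1.71 (against Tnfrsf9). Against Tnfrsf9, the within-array difference was 0.81 ± 0.18 in wild type and -0.90 ± 0.32 in transgenic arrays (SD, n = 4). Against Tnfrsf14 the difference was -0.73 (SE 0.27), with 3 of 4 transgenic arrays below all wild-type arrays. Against Tnfrsf4 it was -0.37 (SE 0.19), from 0.46 ± 0.10 in wild type to 0.095 ± 0.36 in transgenic arrays (SD, n = 4). All 4 transgenic arrays lay below all wild-type arrays, but only barely, since replicate 1 of the 2 groups was nearly level. The difference between the changes ran from -0.46 to -0.20 with single arrays left out. Cd40 was taken for these pairs with its large fall known, which fixed the direction of the differences, so they are given as a description with no test.

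Among the 11 ligands and binding partners of these receptors, Tnfsf9 and Tnf fell, 0 rose and 9 did not pass, with a median log2 fold of -0.17. The genes that fell make up 18.2% of this list, against 0.848% of all genes. Tnfsf9 encodes the ligand of 4-1BB. It was at 9.27, 9.86, 9.52 and 9.74 on wild-type replicates 1 to 4, and at 8.01, 7.71, 7.49 and 7.70 on transgenic replicates 1 to 4. Its log2 fold was -1.87 (95% interval -2.22 to -1.52, limma adjusted p = 0.00101), the lowest moderated statistic of all genes, while its receptor gene Tnfrsf9 was at 0.34 and did not pass. Tnf, the ligand of TNFR1 and TNFR2, was at 8.31, 8.09, 8.68 and 8.75 on wild-type replicates 1 to 4, and at 6.43, 7.22, 7.16 and 7.32 on transgenic replicates 1 to 4. No transgenic value reached a wild-type value, and the log2 fold was -1.43 (95% interval -1.90 to -0.95, limma adjusted p = 0.0128).

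For the receptors that fell, the ligand genes were dim or near dim in both groups. Cd40lg, which activated T cells express, was at 3.95 ± 0.079 and 4.06 ± 0.31 (SD, n = 4), and Tnfsf4, the gene of OX40 ligand, at 5.84 ± 0.38 and 5.69 ± 0.54 (SD, n = 4). Tnfsf11 (RANK ligand), Tnfsf14 (LIGHT) and Tnfsf18 (GITR ligand) were dim in both groups too, at means of 2.93 to 4.67. Lymphotoxin alpha (Lta) had a log2 fold of -0.52 (limma adjusted p = 0.187). Lymphotoxin beta (Ltb) was at 8.41, 7.98, 8.38 and 7.53 in wild-type replicates 1 to 4, and at 8.94, 9.83, 8.53 and 7.84 in transgenic replicates 1 to 4. Its groups overlapped, with a log2 fold of 0.71 (95% interval -0.099 to 1.52, limma adjusted p = 0.453). The HVEM partners Btla and Cd160 had log2 folds of -0.74 and -0.49 and did not pass (limma adjusted p = 0.607 and 0.347). Btla varied widely within the transgenic group, from 5.37 on replicate 4 to 8.18 on replicate 2.

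**Figure D3:**
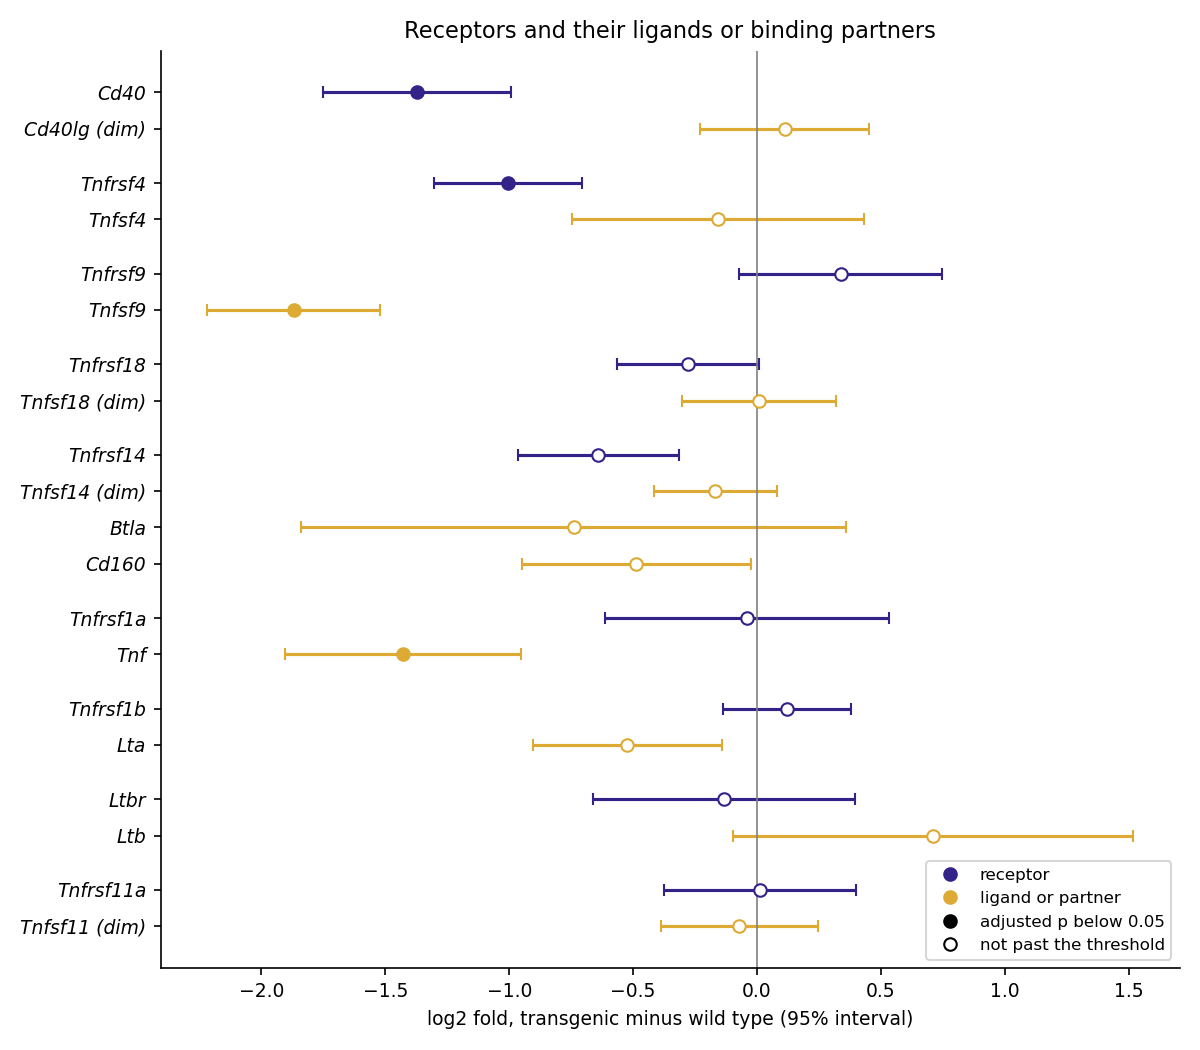
Log2 fold (transgenic minus wild type) with its 95% interval for each receptor (purple) and, beneath it, its ligands or partners (yellow), where filled points passed limma's adjusted p of 0.05. Cd40, Tnfrsf4, Tnfsf9 and Tnf are filled, and the intervals of Tnfrsf9 and of its ligand Tnfsf9 do not overlap.

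Of 19 other TNF receptor genes, 0 passed, with a median log2 fold of -0.11. At an unadjusted p below 0.05, 2 were lower and 1 was higher in limma, against 6.60% and 6.56% of all genes, and 9 of the 19 were dim in both groups. The lower ones were Fas, the death receptor CD95, and Cd27, the receptor of CD70. Fas was at 9.86, 9.86, 9.85 and 9.98 on wild-type replicates 1 to 4, and at 9.45, 9.79, 9.05 and 8.92 on transgenic replicates 1 to 4. Every transgenic array lay below every wild-type one, and the log2 fold of -0.58 missed the threshold (limma adjusted p = 0.151). Cd27 was at -0.92 (95% interval -1.69 to -0.15, limma adjusted p = 0.261), and at -0.54 without transgenic replicate 4. The higher one, Eda2r, was dim in both groups (3.45 and 3.70).

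Of 26 measured TRAF adaptors and other proteins next to the receptors, 0 passed, and 18 had a negative log2 fold (median -0.23). Over all genes, 11160 of 22180 log2 folds were negative, but 10897 of those genes were dim in both groups, against 0 of these 26. At an unadjusted p below 0.05 in limma, 5 were lower and 1 was higher, against 6.60% and 6.56% of all genes. Traf5, an adaptor that CD40 and OX40 both bind, had the lowest statistic. It was at 8.70, 8.19, 8.88 and 8.57 on wild-type replicates 1 to 4, and at 8.11, 7.37, 7.99 and 7.496 on transgenic replicates 1 to 4. The groups did not overlap, and the log2 fold was -0.84 (SE 0.20, limma adjusted p = 0.0702). It passed when genes dimmer than the median one were left out (adjusted p = 0.0478 in limma) and when those averaging under 6 were (0.0421). Tab2, a partner of the kinase TAK1, was at -0.40 (limma adjusted p = 0.0947). The highest statistics were those of Map3k5, the kinase ASK1 (log2 fold 0.41, limma adjusted p = 0.193), and Ikbkg, the gene of NEMO (0.091, limma adjusted p = 0.791).

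Among 14 measured NF-kB subunits and inhibitors, Nfkbid and Tnip2 fell, 0 rose and 12 did not pass. The genes that fell make up 14.3% of this list, against 0.848% of all genes. All 14 log2 folds were negative, with a median of -0.42, against 11160 negative ones among all 22180 genes. Of those 22180 genes 10897 were dim in both groups, against 0 of these 14, so the 2 counts compare unlike genes. For 7 of the 14 the transgenic arrays all lay below the wild-type arrays, against 4.94% of all genes. Nfkbid, the nuclear inhibitor protein IkB-NS, was at 7.72, 8.24, 7.83 and 8.08 on wild-type replicates 1 to 4, and at 7.30, 7.35, 7.14 and 7.14 on transgenic replicates 1 to 4 (log2 fold -0.74, limma adjusted p = 0.0280). Tnip2, a partner of the inhibitor A20, had a log2 fold of -0.66 (limma adjusted p = 0.0447). Tnip2 no longer passed without any 1 of the 8 arrays (adjusted p = 0.0604 to 0.115 in limma), and Nfkbid passed only without wild-type replicate 1 or transgenic replicate 4 (0.0532 to 0.0802 without each of the other 6). Tnfaip3, which encodes A20, was at -0.021 and Nfkbia at -0.15, and neither passed (limma adjusted p = 0.971 and 0.688). The sign of Tnfaip3 turned after quantile normalization again (0.058).

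Of 19 measured genes known to rise in dendritic cells after CD40 is engaged, Cd274 and Bcl2l1 fell, 0 rose and 17 did not pass. The genes that fell make up 10.5% of this list, against 0.848% of all genes. The median log2 fold was -0.30 and 16 were negative, against 11160 negative ones among all 22180 genes. Of those 22180 genes 10897 were dim in both groups, against 2 of these 19. Cd274, the gene of PD-L1, was at 10.64, 10.85, 10.90 and 10.64 on wild-type replicates 1 to 4, and at 10.14, 9.87, 10.12 and 9.89 on transgenic replicates 1 to 4 (log2 fold -0.75, limma adjusted p = 0.0152). It did not pass without wild-type replicate 2 (adjusted p = 0.0582 in limma) or 3 (0.0578). Bcl2l1, the gene of the survival protein BCL-XL, had a log2 fold of -0.78 (limma adjusted p = 0.0181), and did not pass without wild-type replicate 2, 3 or 4 (0.0629, 0.0639 and 0.0549). PD-L1 is known as an inhibitory ligand for T cells. Il6 (0.28) and Ccl5 (0.16) had the highest statistics and did not pass (limma adjusted p = 0.726 and 0.545).

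**Figure D4:**
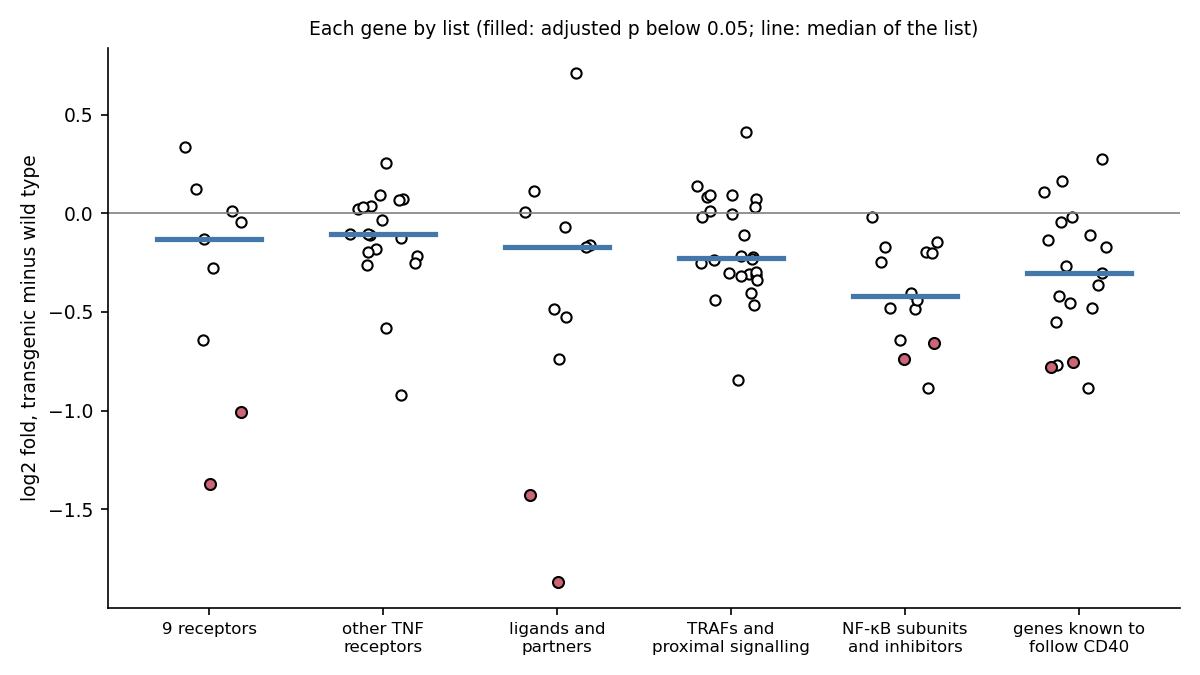
Log2 fold (transgenic minus wild type) of each measured gene in the 9 receptors and in 5 lists of related genes, where each point is a gene, filled points passed limma's adjusted p of 0.05 and the line is the list's median. The medians run from -0.11 in the other TNF receptors to -0.42 in the NF-kB list.

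The genes whose profile over the 8 arrays lay closest to that of Cd40, by root mean square difference of centred log2 signals among 7942 genes, were Tmem39a (0.14), Stap2 (0.20), Tmem106a (0.22), Cenpn (0.23) and Pla2g4f (0.24). Those closest to Tnfrsf4 were Actn1 (0.088), Arhgap31 (0.094), Ap1g2 (0.12), Cpne2 (0.12) and BC035044 (0.12). All 10 had negative log2 folds, from -1.32 to -0.89, which closeness to genes that fell requires.

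In a sorted bulk sample, fewer cells of a type and less RNA per cell cannot be told apart. The genes of the sorting markers gave low levels, at 5.66 and 5.40 for Itgae (CD103) and 5.57 and 5.58 for Itgam (CD11b) in wild-type and transgenic arrays, while Itgax (CD11c) was at 9.05 and 9.22. The array measures mouse genes, so it did not check the human transgene. Of 7 measured cDC markers 0 passed, 5 had a negative log2 fold, and 3 were lower on every transgenic array, against 4.94% of all genes. At an unadjusted p below 0.05 in limma, 4 were lower and 0 higher, against 6.60% and 6.56% of all genes. The summed linear signal of the 7 ran from 29499 to 33005 in wild-type and from 24731 to 29251 in transgenic arrays. In such a sum the brightest genes of a list weigh most, here and in the lists below. The sum was thus lower on every transgenic array, while the mean log2 signal of the same markers overlapped (11.35 to 11.49 and 10.97 to 11.38). B cells, which also express CD40, had 7 measured markers, 3 of them dim in both groups, with sums of 321 to 450 and 336 to 564. T cells, which also express OX40, 4-1BB and GITR, had 7 measured markers with sums of 279 to 376 and 320 to 367. Of their log2 folds 2 were positive and 5 negative. Cd4 rose, at 5.52 and 6.70 (log2 fold 1.18, limma adjusted p = 0.00437), and the other 6 did not pass. The lowest log2 fold was that of Cd8a (-0.75, limma adjusted p = 0.215), and Cd3e was at 5.71 and 5.41. For regulatory T cells 5 markers gave sums of 722 to 878 and 402 to 860, and Foxp3 was near dim at 5.54 and 5.44. The mean log2 signal of these 5 markers was lower on every transgenic array (6.274 to 6.55 and 5.93 to 6.265), and none of them passed. Their lowest log2 folds were those of Il2ra (-0.91), which mature dendritic cells also make, and Ikzf4 (-0.47). Foxp3 was at -0.10, and Ikzf2 (-0.065) and Ctla4 (-0.023) were dim in both groups. The sums of 5 monocyte markers ran from 157 to 252 in wild-type and from 185 to 1653 in transgenic arrays. Of these 5, Ly6c2 was the brightest on transgenic replicate 2, at 10.38. The sums of 7 macrophage markers ran from 1154 to 1374 in wild-type and from 1348 to 1940 in transgenic arrays. The mean log2 signal of the macrophage markers was higher on every transgenic array (6.15 to 6.27 and 6.32 to 6.68). Among them Adgre1, a surface protein of macrophages, rose (log2 fold 1.29, limma adjusted p = 0.0128), and the other 6 did not pass. Of the 7 log2 folds, 5 were positive and 2 negative. C1qa was lower on every transgenic array (log2 fold -0.17), and Mertk (0.071) and Fcgr1 (-0.028) were dim in both groups. For cDC1, a related dendritic cell type, 6 markers gave sums of 3401 to 3743 and 2561 to 3314, which did not overlap, while their mean log2 signal did (7.27 to 7.76 and 6.80 to 8.21). The brightest of the 6 were Batf3 and Irf8, at wild-type means of 10.70 and 10.58. Only Irf8 was lower on every transgenic array (log2 fold -0.49). Of the 6 log2 folds 5 were negative, and that of Cadm1 was 0.48. Of the plasmacytoid markers Bst2 rose (log2 fold 0.76, limma adjusted p = 0.0204), and Spib was at -0.64 with every transgenic array lower (limma adjusted p = 0.0791). The sums of 8 CD11b+ cDC, 8 NK and innate lymphoid, 5 plasmacytoid and 6 stromal markers overlapped between the groups. The part of these cell types in the receptors' levels was not tested.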

How the data were processed

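Gene expression was measured on 8 arrays, each a pool of 2 to 3 sorted samples, from 2.5 ng of RNA amplified with a whole-transcriptome kit per the labels' protocols. The authors deposited log2 signals per probe set. RMA and Partek are named in the submitters' processing notes; their versions, any filter and the genome build were not given in the sources used here. RMA makes array distributions more alike, so a shift of all genes would be largely hidden, and it can compress bright signals. The deposited distributions still differed somewhat, most for transgenic replicate 4. After quantile normalization again Cd40 (log2 fold -1.31) and Tnfrsf4 (-0.94) passed, and Tnfrsf9 was at 0.43 and did not. Arrays have no read depth; 4 arrays per group limit the precision.

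Of 34390 probe sets, 23521 name 1 gene in the platform annotation, 1814 name several and 9055 none. The brightest 1-gene probe set was kept per gene, which left 22180 genes. Groups come from the sample titles. limma 3.58.1 (lmFit, eBayes; R 4.3.3, statmod 1.5.0) gave transgenic minus wild type with Benjamini-Hochberg adjustment over all genes, moderated SEs and 95% intervals. SDs are over the arrays of a group. Exact permutation tests of Cd40 against the other receptors were run and are not used, since Cd40 was chosen with its fall known. The procedure was tested on simulated data. Figures used matplotlib 3.10.9.

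The members and gene lists were chosen with earlier results of these data known. The text could name all 9 receptors, all other TNF receptors and ligands, and from the other lists the genes past the threshold and the 2 highest and 2 lowest statistics; the 5 genes closest in profile to Cd40 and to Tnfrsf4 had to average 6 or more and could not be predicted genes, small RNAs or olfactory or vomeronasal receptors. Marker genes in the last paragraph were chosen from their lists after their values were seen. Alternatives were other variance moderation, filters, normalizations, probe set rules, array weights, a replicate block, a threshold of 0.1 and leaving out each array.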

Additional observations from a re-analysis of the deposited data

Results flagged for a closer look

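Single arrays stood far from the other 3 of their group, by Dixon's criterion at the 95% level, for 4 of 70 gene and group combinations checked; chance gives about 1 in 20. Fas was at 9.98 on wild-type replicate 4, against 9.85 to 9.86 on the others. Cd27 was at 4.77 on transgenic replicate 4, against 6.16 to 6.41. Tnfaip3 was at 9.94 on wild-type replicate 1, against 10.29 to 10.33. Il6 was at 9.03 on wild-type replicate 4, against 8.18 to 8.32. None of the 9 receptors was among them.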

How the results depend on the processing

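Of 22180 genes, 374 passed; 35 did without variance moderation, 187 with the replicate number as a block and 747 at an adjusted p below 0.1, and 106 to 379 with 1 array left out (106, 115, 123 and 133 without wild-type replicates 1 to 4, and 235, 187 and 246 without transgenic replicates 1 to 3). Without moderation 0 of the 9 receptors passed, against 2 in each of the 8 fits that left out an array. Of the 5 related lists together 6 genes passed, against 1 without moderation, 10 when only genes averaging 6 or more were tested, 13 at an adjusted p below 0.1, and 2 to 6 with 1 array left out (2 without wild-type replicate 2 or 3, and 3 without replicate 4). Under the replicate block Cd40 and Tnfrsf4 passed, 4 list genes passed, and Nfkbid, Tnip2 and Bcl2l1 did not (adjusted p = 0.0645, 0.114 and 0.0670 in limma), while Traf5 did (0.0416). Deviations from the group means correlated at -0.032 to 0.079 for same-numbered arrays, and at -0.099 to 0.127 for differently numbered ones. So few correlations cannot decide whether same-numbered arrays share a day or batch, and the labels do not say. With array weights the signs of Tnfrsf1a (0.15), Ltbr (0.030), Tnfrsf11a (-0.055), Tnfaip3 (0.013) and Tnfsf18 (-0.016) turned. After quantile normalization again Tnfaip3 was at 0.058 and Tnfsf18 at -0.0094. With 1 array left out the log2 fold ran from -0.17 to 0.24 for Tnfrsf1a, -0.32 to 0.065 for Ltbr, -0.11 to 0.12 for Tnfrsf11a, -0.11 to 0.048 for Tnfaip3, -0.040 to 0.18 for Cd40lg, -0.13 to 0.040 for Tnfsf11 and -0.059 to 0.10 for Tnfsf18. None of these genes passed in any of these fits, and the cause was not tested.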

Other observations

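A second probe set names Tnfrsf18 together with the predicted gene Gm16008 and was left out of the comparison above. It was at 6.42, 6.30, 6.06 and 5.70 on wild-type replicates 1 to 4, and at 6.12, 5.68, 5.99 and 6.02 on transgenic replicates 1 to 4. Its log2 fold was -0.17 (SE 0.17), with the groups overlapping, as they did on the probe set that names Tnfrsf18 alone.

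Il2ra encodes CD25, which marks regulatory T cells and is also made by mature dendritic cells. It was at 9.01, 8.96, 8.78 and 9.01 on wild-type replicates 1 to 4, and at 9.21, 8.60, 7.04 and 7.28 on transgenic replicates 1 to 4. The transgenic arrays fell into a high and a low pair, and the gene did not pass (log2 fold -0.91, limma adjusted p = 0.381). Il2ra was singled out after its values were seen.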
